A study of Nicotiana tabacum with 6 samples.

Results

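The loci described here carry the names of enzymes and proteins that build cellulose and xylan and of the surface proteins that accompany them, and were found by words of the protein description in the deposited table. The words were cellulose synthase (44 loci), COBRA (24), fasciclin-like arabinogalactan (16), glucuronosyltransferase (37), beta-1,4-xylosyltransferase (15) and trichome birefringence (77), which gave 213 of the 39825 loci of the table. The words IRREGULAR XYLEM and KORRIGAN matched 0 loci. Of the 213 loci, 166 averaged 0.5 FPKM or more across the 6 libraries and were tested. The other 47 had means of at most 0.428, and the highest value among them in any single library was 1.06 FPKM.

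RNA was sequenced from tobacco explants cultured for 2 weeks with 0.5 mg/L or with 0.1 mg/L of the synthetic auxin naphthaleneacetic acid (NAA), with 3 libraries for each treatment. In the study's methods, the tobacco culture medium was MS with the cytokinin 6-benzyladenine, kanamycin and Timentin, and the explants were pieces of cotyledon. The study does not say whether the 2-week explants were infected with Agrobacterium or grown with these antibiotics. The study took the RNA from the same batch of explants as its chromatin accessibility assay, but how the 3 replicates were drawn from that batch is not described, so the p-values measure the spread between these libraries, which may be technical. The labels name Nicotiana tabacum, the study Nicotiana benthamiana, and the locus identifiers are those of the N. benthamiana genome Niben261. FPKM is a fragment count scaled to gene length and to the fragments of the library. Its sum was 986722 to 1015420 in the libraries at 0.5 mg/L and 1140994 to 1155639 in those at 0.1 mg/L, and 3311 to 3983 loci were listed at 0 in a library.

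Cellulose is spun out at the plasma membrane by complexes of CesA catalytic subunits. In Arabidopsis, CesA1, CesA3 and the CesA6 type (to which CesA2 belongs) work in the thin primary wall of growing cells, and CesA4, CesA7 and CesA8 in the thick secondary wall of xylem vessels and fibres. Xylan, the main hemicellulose of secondary walls in dicots, has a xylose backbone that is lengthened by the IRX9, IRX10 and IRX14 proteins, decorated with glucuronic acid by the GUX enzymes and acetylated by members of the trichome birefringence-like (TBL) family. COBRA proteins are anchored to the outside of the plasma membrane and affect how cellulose is laid down, and fasciclin-like arabinogalactan proteins (FLAs) are glycoproteins of the same surface.

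At 2 weeks, the secondary-wall CesA loci and several loci that make xylan were lower at 0.5 mg/L NAA than at 0.1 mg/L NAA, and most primary-wall CesA loci were higher. Among the 166 wall loci tested, the largest fall and the largest rise were both in the COBRA family. Differentially expressed genes were those that limma gave an adjusted p under 0.05 and a log2 fold change (log2FC, of FPKM + 1, 0.5 over 0.1 mg/L) of at least 1 in size, the study's thresholds. Of the 166 loci tested, 21 (12.7%) were down-regulated at these thresholds, where 2.62% of all 32443 loci tested were, and 6 (3.61%) were up-regulated, against 3.24% of all loci. Without the fold threshold, 39 loci fell (23.5%, against 20.2% of all loci) and 36 rose (21.7%, against 21.7% of all loci), and 91 did not pass. With every library rescaled to an equal total (TPM), 164 of the loci were tested, of which 32 fell (19.5%, against 12.2% of all loci) and 62 rose (37.8%, against 34.5%), and the median of all loci moved to 0.19. With the fold threshold as well, 17 were then down-regulated (10.4%, against 1.61% of all loci) and 9 up-regulated (5.49%, against 5.09%). Of the 166 loci, 8 reached the minimum mean only through 1 of the treatments, which favours a difference in that direction, and 4 of these are among the falls (a COBRA-like 4 locus, 2 FLA12 loci and a TBL36 locus) and 0 among the rises. All 3 libraries at 0.5 mg/L lay below all 3 at 0.1 mg/L in 48 of the loci (28.9%, against 25.9% of all loci) and above them in 58 (34.9%, against 28.8%). The median log2FC was 0.02, as it was over all loci tested, and with quantile normalization it was -0.02, against -0.01 over all loci. In RNA of whole explants, fewer cells of a type and less RNA per cell cannot be told apart.

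**Figure D1:**
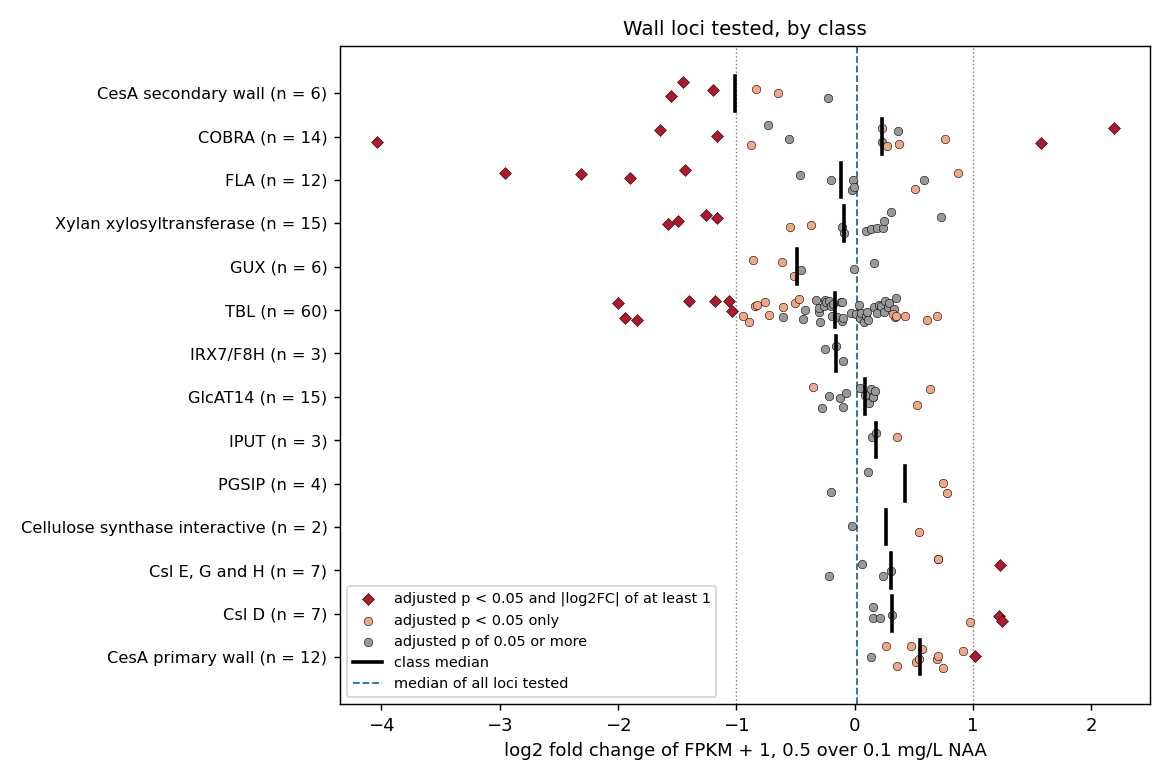
Log2FC of FPKM + 1 (0.5 over 0.1 mg/L NAA, horizontal axis) for each of the 166 loci tested, by class. Each marker is a locus, bars are class medians, the dashed line is the median of all loci tested (0.02), and the dotted lines mark a log2FC of 1 and -1. The secondary-wall CesA loci lie on the left with a median of -1.02 and the primary-wall CesA loci on the right with a median of 0.55, while the COBRA loci span the whole range.

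The CesA loci were split by their number into the secondary-wall subunits 4, 7 and 8 (6 loci, all tested) and the primary-wall subunits 1, 2 and 3 (15 loci, 12 tested). Of the secondary-wall loci, 5 of 6 fell and 0 rose, with a median log2FC of -1.02. Of the primary-wall loci, 11 of 12 rose and 0 fell, with a median of 0.55. Over all loci tested, 20.2% fell and 21.7% rose.

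CesA7 on chromosome 6 (Niben261Chr06g1444006) had 8.18, 6.23 and 4.22 FPKM in the 3 libraries at 0.5 mg/L NAA, against 18.4, 20.5 and 19.96 FPKM at 0.1 mg/L. Its level was 3.16-fold lower at 0.5 mg/L, with a log2FC of -1.55 (standard error 0.19, adjusted p = 0.0010 from limma). CesA4 on chromosome 4 (Niben261Chr04g0049011) had 9.97, 6.31 and 5.02 FPKM at 0.5 mg/L, against 20.9, 19.6 and 21.02 FPKM at 0.1 mg/L (log2FC -1.45, standard error 0.20, adjusted p = 0.0016). In both loci replicate 1 was the highest and replicate 3 the lowest library at 0.5 mg/L, and the treatments did not overlap. The other CesA7, on chromosome 2 (Niben261Chr02g0332006), had 10.6, 7.89 and 4.50 FPKM at 0.5 mg/L and 17.4, 18.1 and 18.6 FPKM at 0.1 mg/L. Its log2FC of -1.20 (standard error 0.24, adjusted p = 0.0071) was -0.90 without replicate 3 of the 0.5 mg/L treatment, where it no longer met the fold threshold.

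The remaining secondary-wall loci moved less. CesA8 on chromosome 16 (Niben261Chr16g0203019) had 10.8, 9.29 and 6.82 FPKM at 0.5 mg/L and 16.3, 16.2 and 17.1 FPKM at 0.1 mg/L, a log2FC of -0.84 (standard error 0.15, adjusted p = 0.0041). CesA4 on chromosome 17 (Niben261Chr17g1376014) had 9.56, 8.76 and 7.61 FPKM at 0.5 mg/L and 14.1, 13.9 and 14.2 FPKM at 0.1 mg/L, a log2FC of -0.65 (standard error 0.10, adjusted p = 0.0022). These subunits kept the treatments apart at smaller distances. The second CesA8, on chromosome 7 (Niben261Chr07g1275024), was weakly expressed, with 2.88, 2.33 and 2.44 FPKM at 0.5 mg/L and 3.45, 2.88 and 3.13 FPKM at 0.1 mg/L. Its treatments overlapped and it did not pass the test (log2FC -0.23, adjusted p = 0.18). Each subunit number thus had a pair of loci, and the difference in log2FC within a pair was not tested.

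Among the primary-wall subunits, the most abundant locus was a CesA1 on chromosome 3 (Niben261Chr03g1459017), with 81.7, 81.2 and 82.9 FPKM at 0.5 mg/L and 61.1, 61.6 and 68.2 FPKM at 0.1 mg/L (log2FC 0.36, standard error 0.07, adjusted p = 0.0053). A CesA2 on chromosome 17 (Niben261Chr17g0422007) had the largest rise of the class, with 29.8, 28.4 and 41.3 FPKM at 0.5 mg/L and 15.9, 14.7 and 16.5 FPKM at 0.1 mg/L. Its level was 2.11-fold higher at 0.5 mg/L (log2FC 1.01, standard error 0.14, adjusted p = 0.0016), and it was the only primary-wall CesA past the fold threshold. It fell short of that threshold without replicate 3 of the 0.5 mg/L treatment (log2FC 0.85) or without replicate 2 of the 0.1 mg/L treatment (0.97). The smallest change was in a CesA1 on chromosome 18 (Niben261Chr18g0237002), with 59.2, 59.8 and 55.4 FPKM at 0.5 mg/L and 52.2, 50.6 and 55.1 FPKM at 0.1 mg/L. Its 2 sets of libraries did not overlap, but the difference did not pass the test (log2FC 0.14, adjusted p = 0.14).

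By subunit number, 3 of 4 CesA1 loci rose with a median log2FC of 0.31, all 6 CesA2 loci rose with a median of 0.64, and both tested CesA3 loci rose with a median of 0.72. The other 3 CesA3 loci were under the expression minimum. One of the CesA1 rises was small, on chromosome 15 (Niben261Chr15g1386004, log2FC 0.26, adjusted p = 0.038, chosen after its values were seen), and its adjusted p reached 0.11 when 1 library was left out. In all 12 primary-wall loci the libraries at 0.5 mg/L lay above those at 0.1 mg/L.

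Summed over their loci, the secondary-wall subunits had 52.0, 40.8 and 30.6 FPKM at 0.5 mg/L NAA and 90.5, 91.2 and 94.0 FPKM at 0.1 mg/L. The primary-wall subunits had 554, 585 and 587 FPKM at 0.5 mg/L and 374, 363 and 399 FPKM at 0.1 mg/L. The secondary-wall subunits therefore made up 8.58%, 6.52% and 4.95% of the FPKM of all CesA loci in the libraries at 0.5 mg/L, and 19.5%, 20.1% and 19.1% in those at 0.1 mg/L. This share is taken within a library, so a rescaling of each library by 1 factor leaves it as it is. The number of fragments behind these values is unknown, so no counting interval is given.

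**Figure D2:**
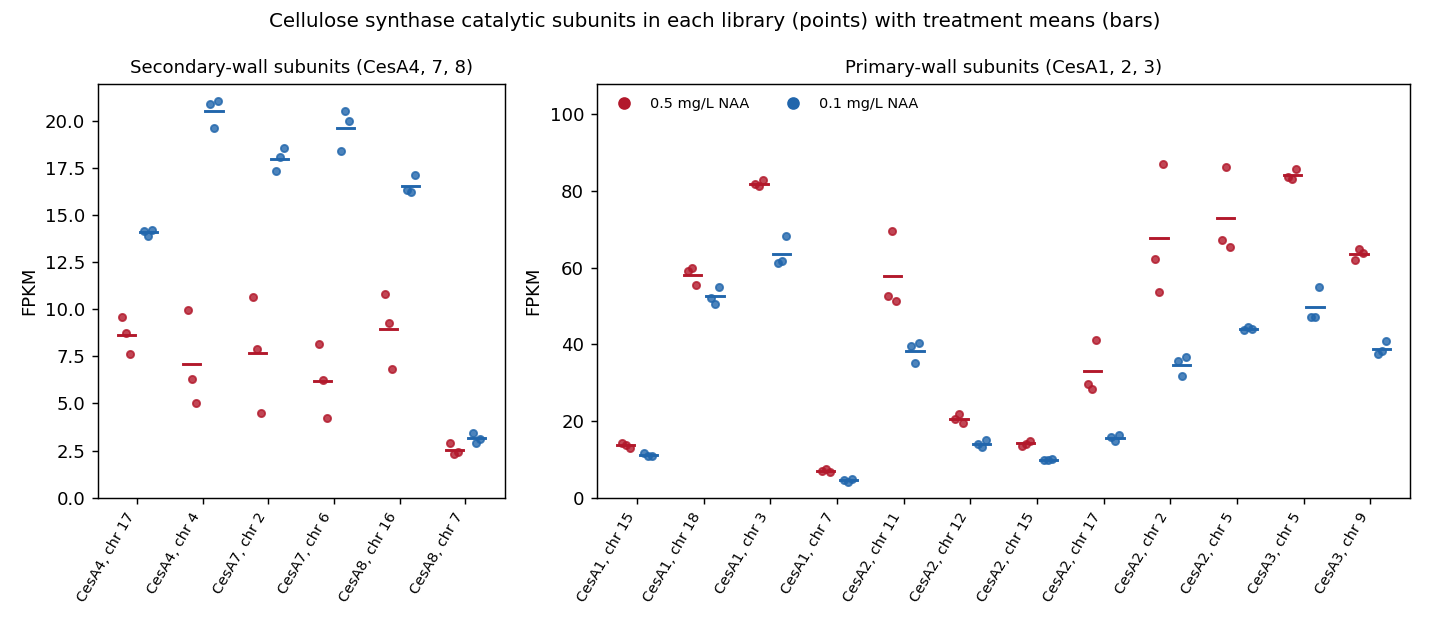
FPKM of each secondary-wall CesA locus (left, subunits 4, 7 and 8) and each tested primary-wall CesA locus (right, subunits 1, 2 and 3), with a point for each library and a bar for the mean of the 3 libraries of a treatment. The vertical scales differ between the panels. At 0.5 mg/L NAA 5 of the 6 secondary-wall loci lie wholly below, and all 12 primary-wall loci wholly above, the libraries at 0.1 mg/L.

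Cellulose synthase-like (Csl) proteins resemble CesA and make other wall polysaccharides or, in CslD, polymers of tip-growing and dividing cells. Of 7 tested CslD loci 3 rose and 0 fell, where 21.7% of all loci rose and 20.2% fell. With TPM, 6 of the 7 rose (85.7%, against 34.5% of all loci). The 3 that rose before rescaling were named CslD3, which in Arabidopsis is needed for root hair growth. CslD3 on chromosome 6 (Niben261Chr06g0703002) had 33.6, 29.5 and 42.7 FPKM at 0.5 mg/L and 13.7, 13.8 and 15.0 FPKM at 0.1 mg/L, a 2.49-fold higher level (log2FC 1.24, standard error 0.13, adjusted p = 0.00064). CslD3 on chromosome 8 (Niben261Chr08g0369023) had 21.1, 21.98 and 29.9 FPKM at 0.5 mg/L and 10.2, 9.62 and 9.5 FPKM at 0.1 mg/L (log2FC 1.22, adjusted p = 0.00070). The lowest library at 0.5 mg/L stood well above the highest at 0.1 mg/L in both. The 2 CslD5 loci, named after a protein of dividing cells in Arabidopsis, had log2FC of 0.16 and 0.21 and did not pass, but both rose after rescaling to TPM.

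Of the 7 tested CslE, CslG and CslH loci 3 rose and 0 fell, where 21.7% of all loci rose and 20.2% fell. The 6 other loci of these classes were under the expression minimum. With TPM, 6 were tested, of which 4 rose and 0 fell, where 34.5% of all loci rose and 12.2% fell. CslE6 on chromosome 13 (Niben261Chr13g1249009) had 22.7, 21.2 and 24.5 FPKM at 0.5 mg/L and 8.58, 9.64 and 9.32 FPKM at 0.1 mg/L, a log2FC of 1.23 with a small standard error of 0.09 (adjusted p = 0.00019). CslH1 on chromosome 19 (Niben261Chr19g0260001), the most abundant of these classes, had 60.7, 35.04 and 60.95 FPKM at 0.5 mg/L and 30.6, 30.7 and 31.04 FPKM at 0.1 mg/L. One library at 0.5 mg/L was close to those at 0.1 mg/L, and the rise (log2FC 0.70, adjusted p = 0.026) had adjusted p-values of 0.068 to 0.077 in the 5 fits that left out any library but replicate 2 of the 0.5 mg/L treatment. CELLULOSE SYNTHASE INTERACTIVE 1, which in Arabidopsis ties the cellulose synthase complex to microtubules, had 18.4, 20.0 and 18.2 FPKM at 0.5 mg/L and 12.2, 12.6 and 13.2 FPKM at 0.1 mg/L (Niben261Chr07g0131004, log2FC 0.54, standard error 0.08, adjusted p = 0.0019). The second interactive locus had a log2FC of -0.02 and did not pass.

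The COBRA family held 24 loci, of which 14 were tested. Of these 6 rose and 4 fell, with a median log2FC of 0.23, where 21.7% of all loci rose and 20.2% fell. With TPM, 13 were tested, of which 8 rose (61.5%, against 34.5% of all loci) and 3 fell (23.1%, against 12.2%). COBRA-like 4 (COBL4) is the member of secondary walls in Arabidopsis, and the 4 falls were all among its 7 loci. One of these (Niben261Chr08g0202002) reached the minimum mean only through its level at 0.1 mg/L, and with a minimum mean of 1 FPKM the falls were 3. COBRA itself acts in the primary wall of expanding cells, and all 3 tested loci of that name rose by less than 0.4 on the log2 scale.

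COBL4 on chromosome 6 (Niben261Chr06g1106013) had 2.48, 0.85 and 0.30 FPKM at 0.5 mg/L, against 31.6, 34.95 and 30.7 FPKM at 0.1 mg/L. This 26.8-fold lower level (log2FC -4.04, standard error 0.32, adjusted p = 0.00026) was the largest change of the 166 loci on the log2(FPKM + 1) scale. Every library at 0.5 mg/L lay far below every library at 0.1 mg/L. The adjacent identifier, Niben261Chr06g1106012, is also described as COBL4, and it had 3.02, 3.33 and 5.93 FPKM at 0.5 mg/L and 1.76, 1.78 and 2.19 FPKM at 0.1 mg/L. It moved in the opposite direction (log2FC 0.77, adjusted p = 0.025), with adjusted p-values of 0.078 and 0.077 without replicate 1 or replicate 2 of the 0.1 mg/L treatment. How fragments of such close copies were divided between loci is not given in the sources used here, so the levels of single copies are uncertain.

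A second pair of consecutive COBL4 identifiers lies on chromosome 4. Niben261Chr04g0962003 had 6.18, 3.39 and 2.11 FPKM at 0.5 mg/L and 13.8, 13.6 and 12.9 FPKM at 0.1 mg/L (log2FC -1.64, standard error 0.27, adjusted p = 0.0030). Its neighbour Niben261Chr04g0962002, described as partial, had 9.65, 3.19 and 3.83 FPKM at 0.5 mg/L and 8.72, 9.62 and 8.57 FPKM at 0.1 mg/L. Here replicate 1 at 0.5 mg/L was as high as the libraries at 0.1 mg/L, and the difference did not pass (log2FC -0.73, adjusted p = 0.10). Without that library the log2FC was -1.15 with an adjusted p of 0.0010.

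The other 3 COBL4 loci were lower at 0.5 mg/L in every library. On chromosome 17, Niben261Chr17g1095009 had 6.91, 4.90 and 3.47 FPKM at 0.5 mg/L and 12.3, 12.7 and 11.8 FPKM at 0.1 mg/L (log2FC -1.16, standard error 0.19, adjusted p = 0.0031). Its log2FC was -0.96 without replicate 3 of the 0.5 mg/L treatment, short of the fold threshold. On chromosome 8, Niben261Chr08g0202002 had 0.12, 0.06 and 0 FPKM at 0.5 mg/L and 0.82, 0.83 and 1.20 FPKM at 0.1 mg/L (log2FC -0.88, adjusted p = 0.0052), and no fold is given because a library was listed at 0. On chromosome 16, Niben261Chr16g0486019 had 2.00, 1.52 and 0.73 FPKM at 0.5 mg/L and 3.22, 2.22 and 2.04 FPKM at 0.1 mg/L. This difference did not pass the test (log2FC -0.55, adjusted p = 0.094), and it passed without replicate 1 of the 0.5 mg/L treatment (adjusted p = 0.046).

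COBRA-like 7 (COBL7) held the largest rises of the 166 wall loci tested. COBL7 on chromosome 4 (Niben261Chr04g0830006) had 75.5, 142 and 104 FPKM at 0.5 mg/L, against 21.9, 20.4 and 23.8 FPKM at 0.1 mg/L. Its level was 4.87-fold higher at 0.5 mg/L (log2FC 2.19, standard error 0.20, adjusted p = 0.00045). COBL7 on chromosome 17 (Niben261Chr17g0941010) had 44.8, 65.9 and 53.5 FPKM at 0.5 mg/L and 18.5, 17.6 and 16.4 FPKM at 0.1 mg/L, a 3.13-fold higher level (log2FC 1.58, standard error 0.14, adjusted p = 0.00035). In both loci replicate 2 was the highest at 0.5 mg/L, and every library of that treatment stood well clear of the other. The third COBL7, on chromosome 10 (Niben261Chr10g0158009), had 3.14, 2.99 and 2.97 FPKM at 0.5 mg/L and 2.20, 2.71 and 2.44 FPKM at 0.1 mg/L, and did not pass (log2FC 0.23, adjusted p = 0.16).

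The abundant COBRA loci changed little. COBRA on chromosome 7 (Niben261Chr07g0953001) had 95.2, 107 and 109 FPKM at 0.5 mg/L and 86.1, 82.9 and 87.5 FPKM at 0.1 mg/L (log2FC 0.27, adjusted p = 0.022). COBRA on chromosome 15 (Niben261Chr15g1147007) had 93.1, 98.8 and 98.3 FPKM at 0.5 mg/L and 82.5, 78.2 and 85.8 FPKM at 0.1 mg/L (log2FC 0.23, adjusted p = 0.026). Each of these small rises had an adjusted p of 0.051 to 0.10 in 3 of the 6 fits with 1 library left out: without replicate 3 of the 0.5 mg/L treatment, or without replicate 1 or 2 of the 0.1 mg/L treatment. The third COBRA locus (Niben261Chr07g1429011) had 10.5, 8.81 and 7.64 FPKM at 0.5 mg/L and 6.24, 6.80 and 6.93 FPKM at 0.1 mg/L (log2FC 0.37, adjusted p = 0.044), and its adjusted p was 0.073 to 0.14 in the 5 fits that left out any library but replicate 3 of the 0.5 mg/L treatment. COBL1 on chromosome 6 (Niben261Chr06g1107028) had 6.32, 4.92 and 7.20 FPKM at 0.5 mg/L and 4.14, 4.50 and 4.90 FPKM at 0.1 mg/L. It did not pass (log2FC 0.36, adjusted p = 0.076), and did so without replicate 2 of the 0.5 mg/L treatment (adjusted p = 0.019). The untested members were all 4 loci named COBL10 and both named COBL6, with 2 named COBRA and 2 named COBL1.

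**Figure D3:**
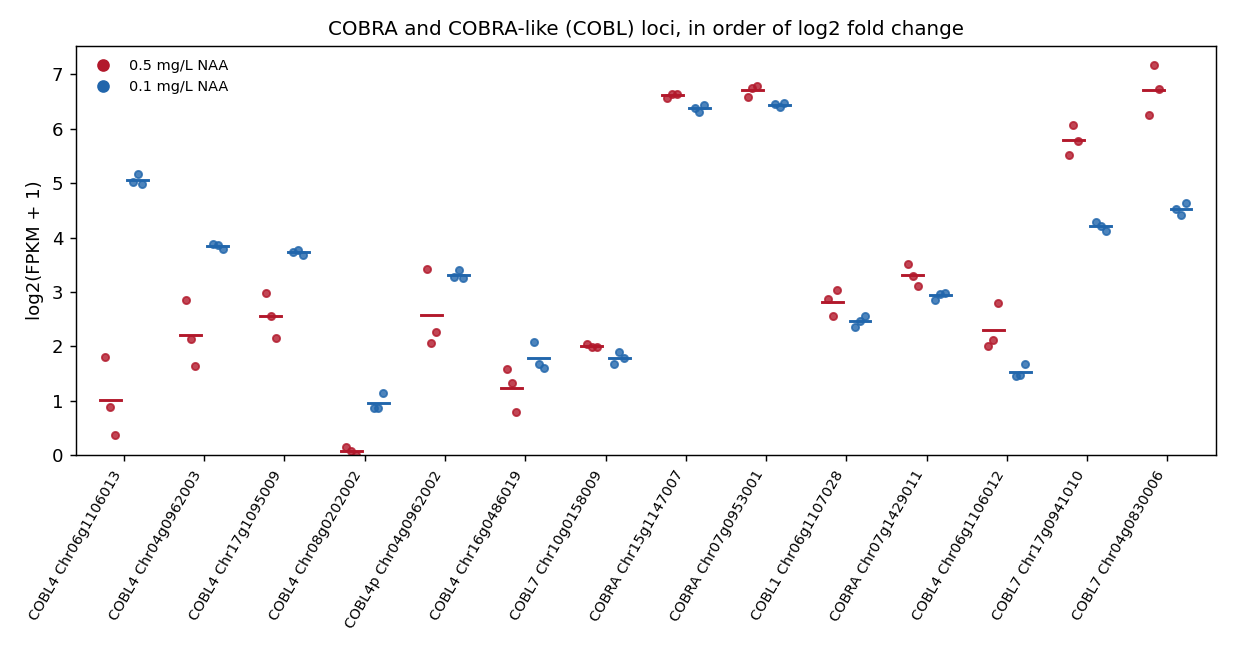
Log2(FPKM + 1) of the 14 tested COBRA and COBRA-like loci in each library (points), with the treatment means on that scale as bars. The COBL4 locus on chromosome 6 drops to between 0.30 and 2.48 FPKM at 0.5 mg/L NAA, against 30.7 to 34.95 FPKM at 0.1 mg/L, and 2 COBL7 loci stand above their values at 0.1 mg/L.

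Fasciclin-like proteins numbered 16, of which 12 were tested, and of these 4 fell and 2 rose. Over all loci tested, 20.2% fell and 21.7% rose. With TPM, 4 of the 12 fell and 3 rose, where 12.2% of all loci fell and 34.5% rose. All 4 tested loci named FLA12, which in Arabidopsis is an FLA of fibres and vessels in stems, were down-regulated, 2 of which reached the minimum mean only through their levels at 0.1 mg/L, and both loci named FLA9 rose. The most abundant FLA12, on chromosome 3 (Niben261Chr03g1222008), had 74.2, 54.0 and 35.5 FPKM at 0.5 mg/L and 195.8, 197.5 and 199.2 FPKM at 0.1 mg/L. Its level was 3.62-fold lower at 0.5 mg/L (log2FC -1.90, standard error 0.23, adjusted p = 0.00091), and the libraries at 0.5 mg/L were widely spread while those at 0.1 mg/L were nearly equal.

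FLA12 on chromosome 1 (Niben261Chr01g0018003) had 9.05, 6.51 and 3.78 FPKM at 0.5 mg/L and 58.0, 55.5 and 49.4 FPKM at 0.1 mg/L, an 8.42-fold lower level (log2FC -2.95, standard error 0.24, adjusted p = 0.00030). A further FLA12 on chromosome 1 with a nearby identifier (Niben261Chr01g0018029) had 0.10, 0.11 and 0.10 FPKM at 0.5 mg/L and 4.61, 4.45 and 4.39 FPKM at 0.1 mg/L (log2FC -2.31, standard error 0.12, adjusted p = 7.1e-05). As a plain ratio of mean FPKM this was 43.4-fold lower, with a mean at 0.5 mg/L of 0.103 FPKM from an unknown number of fragments. The fourth (Niben261Chr04g0349005, chosen after its values were seen) had 0.19, 0.19 and 0.18 FPKM at 0.5 mg/L and 2.48, 2.12 and 2.06 FPKM at 0.1 mg/L (log2FC -1.44, adjusted p = 0.00050). At 0.5 mg/L these last FLA12 loci were close to 0 in every library. The 2 FLA9 loci, also chosen after their values were seen, had log2FC of 0.51 (Niben261Chr11g0038011) and 0.87 (Niben261Chr01g0094006). The 2 FLA8 loci did not pass, with log2FC of -0.02 and -0.01.

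The 15 xylosyltransferases, all tested, counted 6 falls and 0 rises with a median log2FC of -0.09, and 4 falls and 4 rises with a median of 0.09 after rescaling to TPM. Over all loci tested, 20.2% fell and 21.7% rose, and after that rescaling 12.2% fell and 34.5% rose, with a median of 0.19. All 4 down-regulated loci were the 2 named IRX9 and the 2 named IRX10, which act in secondary-wall xylan in Arabidopsis, while the loci named IRX14, the third backbone protein given above, did not pass. IRX9 on chromosome 1 (Niben261Chr01g0012003) had 15.1, 10.7 and 6.94 FPKM at 0.5 mg/L and 30.6, 30.1 and 32.7 FPKM at 0.1 mg/L (log2FC -1.49, standard error 0.23, adjusted p = 0.0022). IRX9 on chromosome 12 (Niben261Chr12g0252010) had 6.83, 3.76 and 3.39 FPKM at 0.5 mg/L and 11.2, 12.7 and 12.4 FPKM at 0.1 mg/L (log2FC -1.26, adjusted p = 0.0032). IRX10 on chromosome 3 (Niben261Chr03g0533003) had 4.42, 4.35 and 2.23 FPKM at 0.5 mg/L and 11.04, 12.7 and 14.2 FPKM at 0.1 mg/L, a 3.45-fold lower level (log2FC -1.58, standard error 0.21, adjusted p = 0.0013). In these loci every library at 0.5 mg/L was lower than every library at 0.1 mg/L. The second IRX10 (Niben261Chr18g0993009, chosen after its values were seen) had a log2FC of -1.16 (adjusted p = 0.0026).

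Their close relatives, IRX9H and IRX10L, are expressed more broadly in Arabidopsis. None of the 5 IRX9H loci passed the test, with log2FC of 0.10 to 0.31, although 3 rose after rescaling to TPM. Neither of the 2 loci of IRX14, a backbone protein like IRX9 and IRX10 and not one of these relatives, passed, with log2FC of -0.11 and -0.09. Of the 4 IRX10L loci 2 fell and 2 did not pass, and after rescaling to TPM 0 fell and 1 rose. The most abundant of them (Niben261Chr08g1163011) had 25.2, 19.2 and 18.6 FPKM at 0.5 mg/L and 27.7, 25.5 and 28.5 FPKM at 0.1 mg/L (log2FC -0.37, adjusted p = 0.043), and it had adjusted p-values of 0.074 to 0.12 in the 5 fits that left out any library but replicate 1 of the 0.5 mg/L treatment. Between IRX9 or IRX10 and the IRX14, IRX9H or IRX10L loci the difference itself was not tested.

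Among the 31 tested glucuronosyltransferases, which belong to several families, 4 fell and 5 rose, where 20.2% of all loci fell and 21.7% rose. After rescaling to TPM 2 fell (6.45%, against 12.2% of all loci) and 11 rose (35.5%, close to the 34.5% of all loci). GUX enzymes add glucuronic acid to xylan, and of their 6 tested loci 3 fell and 0 rose (median log2FC -0.48), and after rescaling to TPM 2 fell and 1 rose. GUX1 on chromosome 12 (Niben261Chr12g1270008, chosen after its values were seen) had 4.69, 4.59 and 4.53 FPKM at 0.5 mg/L and 8.39, 8.81 and 10.5 FPKM at 0.1 mg/L (log2FC -0.86, standard error 0.11, adjusted p = 0.0011). The other falls were the 2 tested GUX2 loci, with log2FC of -0.62 and -0.52, and the 2 tested GUX3 loci had log2FC of -0.01 and 0.16. None of the 3 loci named IRX7 or F8H, which are needed for the end sequence of xylan, passed the test (log2FC -0.26 to -0.10).

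The 5 rises were outside the GUX, IRX7 and F8H loci. PGSIP8 on chromosome 13 (Niben261Chr13g0987011), the most abundant glucuronosyltransferase, had 36.3, 44.9 and 47.2 FPKM at 0.5 mg/L and 24.3, 24.8 and 25.9 FPKM at 0.1 mg/L (log2FC 0.74, standard error 0.10, adjusted p = 0.0017). PGSIP8 on chromosome 1 (Niben261Chr01g1131004) had 22.4, 20.6 and 21.1 FPKM at 0.5 mg/L and 11.01, 13.1 and 12.1 FPKM at 0.1 mg/L (log2FC 0.78, standard error 0.09, adjusted p = 0.00079). Both kept the treatments apart. Of the 15 tested GlcAT14 loci, whose proteins add glucuronic acid to arabinogalactans, 2 rose, 1 fell and 12 did not pass. After rescaling to TPM 5 of them rose (33.3%, close to the 34.5% of all loci) and 0 fell (against 12.2%). A rise of 0.36 was in a locus named after the sphingolipid enzyme inositol phosphorylceramide glucuronosyltransferase 1, which carries the word of the rule but is not a wall enzyme.

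The TBL family was the largest, with 77 loci of which 60 were tested. Of these 16 fell and 5 rose, and 7 were down-regulated and 0 up-regulated with the fold threshold (median log2FC -0.17). Of all loci tested 20.2% fell and 21.7% rose, and 2.62% were down-regulated and 3.24% up-regulated. After rescaling to TPM 14 TBL loci fell (23.3%, against 12.2% of all loci) and 13 rose (21.7%, against 34.5%). The 15 tested loci named TBL3 or TBL31 to TBL35, several of which acetylate xylan in Arabidopsis, counted 6 falls and 0 rises with a median of -0.44. The other 45 counted 10 falls and 5 rises with a median of -0.10.

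TBL3 on chromosome 12 (Niben261Chr12g0381007) had 5.19, 3.5 and 1.85 FPKM at 0.5 mg/L and 16.3, 16.5 and 15.9 FPKM at 0.1 mg/L, a 4.61-fold lower level (log2FC -2.00, standard error 0.25, adjusted p = 0.0011). TBL31 on chromosome 8 (Niben261Chr08g1084008) had 5.41, 2.86 and 2.34 FPKM at 0.5 mg/L and 15.6, 14.9 and 16.7 FPKM at 0.1 mg/L (log2FC -1.94, standard error 0.23, adjusted p = 0.00084). TBL3 on chromosome 16 (Niben261Chr16g0817002) had 5.43, 3.20 and 2.03 FPKM at 0.5 mg/L and 13.4, 13.3 and 17.2 FPKM at 0.1 mg/L (log2FC -1.84, adjusted p = 0.0016). Replicate 1 was the highest library at 0.5 mg/L in each of these loci, and replicate 3 the lowest. The other 4 down-regulated loci were named TBL32 (log2FC -1.40), TBL36 (-1.18) and TBL10 (-1.06 and -1.04), and were chosen after their values were seen. The TBL10 loci fell short of the fold threshold without 1 library: Niben261Chr13g0305011 had a log2FC of -0.81 without replicate 3 of the 0.5 mg/L treatment, and Niben261Chr17g0869001 had -0.998 without replicate 1 of that treatment and -0.98 without replicate 2 of the 0.1 mg/L treatment.

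The most abundant TBL locus was a TBL36 on chromosome 6 (Niben261Chr06g0104016), with 78.5, 57.4 and 52.4 FPKM at 0.5 mg/L and 112, 120 and 114 FPKM at 0.1 mg/L (log2FC -0.89, standard error 0.14, adjusted p = 0.0026). The 5 rises were small, with log2FC of 0.32 to 0.70, and their loci were named TBL37 (the largest), TBL11, TBL10 and, for 2 of them, TBL without a number. Loci of 1 name seldom went both ways. Of the 49 names with at least 2 tested loci, 21 had at least 2 loci past the test, and in 2 of these (COBL4 and TBL10) the loci went in both directions.

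The libraries of the 0.5 mg/L treatment differed among themselves in the loci that fell. In the 39 loci that fell, replicate 1 was the highest of the 3 libraries at 0.5 mg/L in 32 (82.1%) and replicate 3 the lowest in 27 (69.2%), whereas over all 6567 loci that fell these shares were 54.3% and 61.6%. The median distance of the 39 loci from their mean at 0.1 mg/L was -0.75 in replicate 1, -1.08 in replicate 2 and -1.41 in replicate 3 on the log2 scale. On that scale the median standard deviation of these loci between the libraries at 0.5 mg/L was 0.30, and between those at 0.1 mg/L 0.08. In the 36 loci that rose the median standard deviation was 0.15 (0.5 mg/L) and 0.08 (0.1 mg/L). Of the 27 differentially expressed loci, 22 met both thresholds in all 6 fits with 1 library left out.

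**Figure D4:**
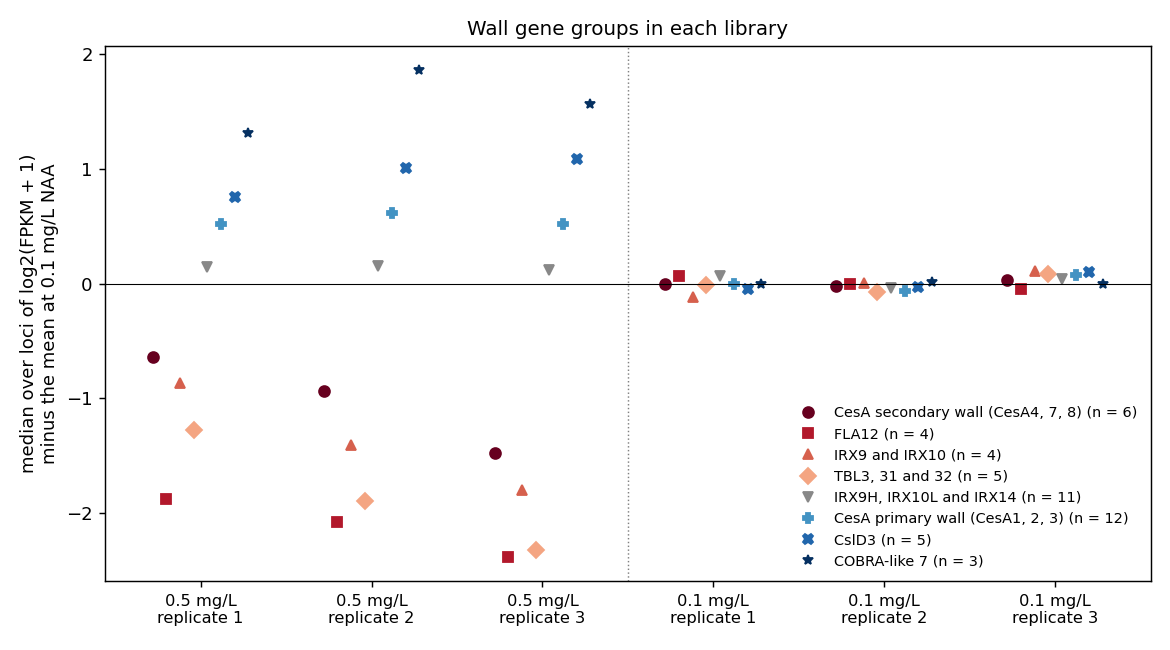
Median over the loci of a group of the log2 difference of FPKM + 1 from the mean of the 0.1 mg/L NAA libraries, for each library. The TBL group holds only the 5 tested loci named TBL3, TBL31 and TBL32, without the TBL33 to TBL35 loci counted in the text. The IRX14 loci are pooled with IRX9H and IRX10L. The secondary-wall CesA loci lie at -0.64, -0.93 and -1.48 in the 3 libraries at 0.5 mg/L NAA and within 0.03 of 0 in those at 0.1 mg/L, and the primary-wall CesA loci lie at 0.51, 0.61 and 0.52 at 0.5 mg/L.

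Other wall synthesis genes were counted from a list of names. These were chitinase-like proteins, endoglucanase 25-like cellulases, an IRX15-like protein and the synthases of mannan and xyloglucan. Of 29 tested loci 11 rose and 6 fell, with a median log2FC of 0.02, where 21.7% of all loci rose and 20.2% fell. After rescaling to TPM 12 of 28 rose (42.9%, against 34.5% of all loci) and 4 fell (14.3%, against 12.2%). The largest changes were in the 2 loci named xyloglucan glycosyltransferase 4, of the CslC type that makes the xyloglucan backbone of primary walls. The locus on chromosome 16 (Niben261Chr16g0431012) had 129.9, 178 and 163 FPKM at 0.5 mg/L and 26.7, 27.6 and 29.2 FPKM at 0.1 mg/L (log2FC 2.44, standard error 0.12, adjusted p = 5.0e-05). The locus on chromosome 7 (Niben261Chr07g1478006) had 91.5, 109.8 and 119.9 FPKM at 0.5 mg/L and 20.95, 21.4 and 22.6 FPKM at 0.1 mg/L (log2FC 2.25, adjusted p = 4.6e-05). Both stood several-fold above every library at 0.1 mg/L. Of the 4 endoglucanase 25-like loci, the name under which KORRIGAN cellulases appear in this table, 2 rose and 0 fell. The lowest log2FC of the list was in the IRX15-like locus (Niben261Chr07g0578008, -0.94, adjusted p = 0.00085 from limma, chosen after its values were seen). Of the 4 tested loci named chitinase-like protein 1, 2 fell and 0 rose.

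Transcription factors named after regulators of the secondary wall counted 9 falls and 4 rises among 22 tested loci, with a median log2FC of -0.38. Of all loci 20.2% fell and 21.7% rose. After rescaling to TPM 7 of the 22 fell (31.8%, against 12.2% of all loci) and 4 rose (18.2%, against 34.5%). NAC43 (NST1 in Arabidopsis) switches on the secondary wall programme of fibres, and the 3 tested NAC43-like loci were down-regulated, 2 of which reached the minimum mean only through their levels at 0.1 mg/L. The most abundant (Niben261Chr14g1534011) had 2.23, 2.37 and 1.35 FPKM at 0.5 mg/L and 13.2, 10.95 and 11.1 FPKM at 0.1 mg/L, a 5.92-fold lower level (log2FC -2.11, standard error 0.16, adjusted p = 0.00024). Another (Niben261Chr03g0042004) had 0.36, 0.18 and 0.09 FPKM at 0.5 mg/L and 2.38, 2.59 and 2.47 FPKM at 0.1 mg/L (log2FC -1.53, adjusted p = 0.00050). The 10 loci named NAC7 (VND4 in Arabidopsis, a factor of vessels) were mixed, with 4 falls and 1 rise. The rises outside NAC7 were in a NAC30 (Niben261Chr05g0442001, log2FC 0.51), a NAC37 (Niben261Chr15g1246005, 0.57) and a NAC73 (Niben261Chr07g0283017, 0.78), chosen after their values were seen. Another NAC73 (Niben261Chr11g0033001) fell, with a log2FC of -1.19. Of the 4 tested loci named MYB46 or MYB83, 1 fell and 3 did not pass.

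Markers of cell types were counted beside these loci. Of all loci tested 20.2% fell and 21.7% rose, and the FPKM sum of whole libraries was also higher at 0.1 mg/L. Of 19 tested xylem markers (xylem cysteine proteinase, laccase-4, laccase-17, bifunctional nuclease 1 and endonuclease 2) 8 fell and 3 rose, and their summed level was 317 to 401 FPKM at 0.5 mg/L and 423 to 441 FPKM at 0.1 mg/L. The 2 endonuclease 2 loci both rose, and the other 17 counted 8 falls and 1 rise, with sums of 221 to 311 FPKM at 0.5 mg/L and 368 to 385 FPKM at 0.1 mg/L. This split was made after the values were seen. Of the 17, the laccase-17 that rose (Niben261Chr16g0916014) reached the minimum mean only through 0.5 mg/L, and a laccase-4 that fell (Niben261Chr03g0801004) only through 0.1 mg/L. After rescaling to TPM 6 of the 19 xylem markers fell (31.6%, against 12.2% of all loci) and 4 rose (21.1%, against 34.5%). Of 46 tested markers of green mesophyll (chlorophyll a-b binding proteins and the small Rubisco subunit) 39 fell and 0 rose, with sums of 2860 to 3850 FPKM at 0.5 mg/L and 7632 to 8442 FPKM at 0.1 mg/L. Of these falls, Niben261Chr17g0569061, Niben261Chr19g1221006 and Niben261Chr19g1221005 reached the minimum mean only through 0.1 mg/L. After rescaling to TPM 38 of the mesophyll markers fell (82.6%) and 1 rose (2.17%). Of 11 tested markers of dividing cells (KNOLLE and aurora kinases) 2 fell and 0 rose, with sums of 85.8 to 101.04 FPKM at 0.5 mg/L and 112 to 115 FPKM at 0.1 mg/L. These falls were near the share of all loci, and after rescaling to TPM 1 of the 11 fell and 1 rose. Both tested phloem markers, callose synthase 7 loci, rose, with sums of 26.8 to 33.5 FPKM at 0.5 mg/L and 18.5 to 18.8 FPKM at 0.1 mg/L, and the one sieve element occlusion locus was at 0 in 5 of the 6 libraries. The part of these cell types in the changes of the wall loci was not tested.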

How the data were processed

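RNA-seq of 6 libraries of explants cultured for 2 weeks was analysed, with treatment and replicate taken from the labels. The authors deposited expression as FPKM, a value normalized for gene length and library, with a protein description for each locus. Per the labels, total RNA was purified with an RNeasy kit and libraries were made with a SMARTer mRNA-Seq kit. The study describes fastp, HISAT2, StringTie and RSEM for its later stages, and the steps for the 2-week libraries are not given in the sources used here. The table gives FPKM and not counts, so depth is unknown and no count model was fitted.

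The 32443 loci that averaged 0.5 FPKM or more were tested with limma 3.58.1 in R 4.3.3 on log2(FPKM + 1), with eBayes moderation and a variance trend over expression, two-sided, and p-values were adjusted over all of them by the Benjamini-Hochberg method. Rose and fell mean an adjusted p under 0.05. The log2 fold change understates the change of weakly expressed loci. Classes are described by counts and medians. Plots were made in Python 3.11.15 (matplotlib 3.10.9).

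The members, the lists of other wall genes, regulators and markers and the tests were chosen with earlier results of these data known. Named were all tested secondary-wall CesA and COBRA loci, the primary-wall CesA loci with the highest mean, the largest rise and the lowest log2 fold change (0 fell), in each other class the locus with the highest mean and up to 3 largest rises and falls past both thresholds (or, with none, that with the smallest adjusted p), and 2 per list of other wall genes and regulators. Alternatives were another pseudocount, other filters, other scalings, a replicate block, no variance trend and leaving out each library in turn. Deviations of same-numbered libraries from their treatment means had correlations of 0.010 to 0.022, and those of differently numbered libraries -0.01 to 0. Such values cannot show whether same-numbered libraries shared a harvest or batch. The main test did not pair the libraries.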

Additional observations from a re-analysis of the deposited data

How the results depend on the processing

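With libraries rescaled to equal totals (TPM), 62 of 164 loci rose (37.8%, against 34.5% of all loci) and 32 fell (19.5%, against 12.2%) in place of 36 and 39, with 9 up-regulated (5.49%, against 5.09%) and 17 down-regulated (10.4%, against 1.61%). This moved the median log2FC of all loci tested from 0.02 to 0.19 and that of the primary-wall CesA loci to 0.73, while that of the secondary-wall CesA loci was -0.83. Relative to that shift the medians of the FLA (0.07), xylosyltransferase (0.09) and IRX7 and F8H (0.02) classes, negative before, lay above 0 and below the median of all loci. CesA1 on chromosome 18 (Niben261Chr18g0237002) passed with TPM (adjusted p = 0.0061) and with quantile normalization (0.033). The CesA2 of chromosome 17 (Niben261Chr17g0422007) fell short of the fold threshold with median-of-ratios scaling (log2FC 0.991) and quantile normalization (0.999), and the COBL4 of chromosome 17 (Niben261Chr17g1095009) with TPM (-0.98). With the replicate number as a block, 31 loci rose and 39 fell, with 6 up-regulated and 21 down-regulated. Of the named loci the block ended the call of COBRA on chromosome 15 (Niben261Chr15g1147007, adjusted p = 0.059) and of the third COBRA (Niben261Chr07g1429011, 0.082) and gave one to COBL4 on chromosome 16 (Niben261Chr16g0486019, 0.045). The same COBRA loci had adjusted p-values of 0.056 without the variance trend (Niben261Chr15g1147007) and of 0.063 without a filter and 0.12 with quantile normalization (Niben261Chr07g1429011), and IRX10L (Niben261Chr08g1163011) had 0.055 without a filter, 0.061 without the trend and 0.24 with TPM. With 1 library left out, 18 to 23 loci were down-regulated and 5 to 7 up-regulated, 26 to 37 rose and 31 to 41 fell, and the median log2FC was -1.20 to -0.78 for secondary-wall and 0.49 to 0.61 for primary-wall CesA. For the 45 named loci, 586 of 625 values under the 14 alternatives kept direction and side of the adjusted p threshold, 31 no longer passed, 8 newly passed and 0 changed direction. Reads per library are unknown, so loci near 0 FPKM are the least certain.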
